A study of Mus musculus with 18 samples.

Results

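Glucose uptake, glycolysis and the pentose phosphate pathway were followed through 40 genes in sorted mouse thymocytes. The 40 are glucose transporters, the enzymes from hexokinase to lactate dehydrogenase, lactate transporters, regulators of flux, the gate to the mitochondria and the pentose phosphate enzymes. A gene was kept where a probe carrying its current or older symbol was detected (detection p under 0.05) on at least 3 of 18 arrays, which left 30 of the 40. Probes were named here for 35 of the 40. Hk1, Hk3, Eno2, Eno3 and Tigar had a probe detected on 0 or 1 arrays, and Hk2, Gpi1, Eno1, Ldhb and G6pdx were not analysed here. Hexokinase and enolase therefore had no measured member. Just inside the limit stood Aldoc and Pfkfb4 with 3 detected arrays each and Rpe with 4, and just outside it Hk3 and Tigar with 1.

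RNA came from 3 thymocyte populations isolated by fluorescence-activated sorting: cells with both coreceptors, called double-positive or DP, cells with CD4 alone (CD4 SP, for single-positive) and cells with CD8 alone (CD8 SP). Wild-type mice (wt) were C57Bl/6N, and the conditional knock-outs (cKO), labelled with the same strain, carried a FoxN1-Cre deletion of exon 3 of Gpr177, whose current symbol is Wls. This Cre is expressed in the thymic epithelium, which supports thymocytes, so the arrayed cells are not those that lost the exon. All mice were 4 to 6 weeks old, and each of the 6 groups had 3 Illumina BeadChip arrays. The labels do not say whether replicates were separate animals, so p-values measure the spread between these samples.

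Glycolysis splits glucose into pyruvate with a net gain of ATP, and lactate dehydrogenase turns pyruvate into lactate while it restores NAD+. The pentose phosphate pathway draws on the same glucose 6-phosphate to make NADPH and ribose for nucleotides. DP thymocytes include dividing blasts and small resting cells, and those that receive a signal through the T cell receptor go on to the CD4 SP or CD8 SP stage.

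Levels below are log2 normalized probe intensities, on which 1 unit is a doubling. Replicate arrays correlated at 0.848 to 0.908. The median raw intensity averaged 169.0 in DP wt, 172.8 in CD4 SP wt, 181.6 in DP cKO, 220.1 in CD4 SP cKO, 221.1 in CD8 SP wt and 253.0 in CD8 SP cKO. The sort markers gave mixed readings by probe. One Cd4 probe averaged 8.45 to 8.76 in DP and CD4 SP and was detected on no CD8 SP array, while the brighter one still read 6.71 in CD8 SP wt and 6.82 in CD8 SP cKO. The brightest Cd8b1 probe averaged 10.91 to 11.75 in DP and CD8 SP and 7.87 to 8.37 in CD4 SP, another ran the same way, and the last was lowest in DP. The Cd8a probe was detected on no CD8 SP array. CD8 SP cells still gave Rag1 at 9.85 in wt and 9.97 in cKO, against 11.88 and 11.70 in the DP groups and 7.24 and 7.18 in the CD4 SP groups. The mean over 11 measured genes of 12 cycling-cell markers was 7.96 in DP wt, 8.02 in CD8 SP wt and 6.48 in CD4 SP wt, with 7.61, 8.08 and 6.22 in cKO. Of the defining genes of other cell types, 2 of 6 for B cells, 3 of 7 for macrophages and dendritic cells, 1 of 7 for erythroid cells and 2 of 6 for thymic epithelium were measured. Foxn1, Epcam, Krt5 and Krt14 were not among them. Wls, detected on all 18 arrays by its brightest probe, had group means from 5.89 to 6.80 and passed the threshold in no cKO against wt comparison (limma adjusted p = 0.437 or more). Wls on these arrays checks no label, because the deletion was made in the epithelium.

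The first question was how the pathway differed between DP and SP cells of wt thymus. In CD4 SP cells, 3 glycolytic genes were higher than in DP cells: Aldoa 2.43-fold, Pkm 2.12-fold and Pgam1 1.78-fold. In CD8 SP cells, 6 were higher: Tpi1 2.96-fold, Pgam1 2.16-fold, Aldoa 2.08-fold, Ldha 1.83-fold, Pgk1 1.70-fold and Pkm 1.63-fold. Rpe, a pentose phosphate enzyme, was lower in both SP populations, and Slc16a1, a lactate transporter, was lower in CD8 SP. The members called higher lay between aldolase and lactate dehydrogenase, and no phosphofructokinase was among them by its brightest probe. Differences in RNA per cell and in the share of a cell type within a sorted population cannot be told apart on such arrays.

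Among the 30 measured members, 4 passed the threshold (limma, Benjamini-Hochberg adjusted p under 0.05 over all tested probes) between CD4 SP and DP of wt, 3 higher and 1 lower. Over all 12978 genes tested 6.33% passed, 3.29% higher and 3.04% lower. Between CD8 SP and DP of wt 8 members passed, 6 higher and 2 lower, against 7.6% of all genes, 3.84% higher and 3.76% lower. The median difference of the members was 0.10 for CD4 SP and 0.32 for CD8 SP, beside 0.07 and 0.15 over all genes. In each of these calls the 3 SP values lay on one side of the 3 DP values. Such separation of values was seen for 8 members above and 3 below in CD4 SP (13.4% and 10.5% of all genes) and for 11 above and 4 below in CD8 SP (17.6% and 10.9%). Rpe was kept only through its DP arrays, so its call follows in part from the filter. The counts moved with single arrays: 4 became 2 without DP wt array 1 or CD4 SP wt array 2, and 8 became 3 without DP wt array 1 or CD8 SP wt array 3 and 4 without any other array of those groups. The same comparisons in cKO cells used other arrays. There 6 members passed between CD4 SP and DP, 5 higher and 1 lower, against 5.25% of all genes, 2.55% higher and 2.7% lower. Between CD8 SP and DP 5 passed, all higher, against 6.82%, 3.47% higher and 3.35% lower. Values of cKO cells separated for 7 members above and 2 below in CD4 SP (11.3% and 9.64% of all genes) and for 9 above and 1 below in CD8 SP (13.2% and 9.8%). The 6 became 3 without CD4 SP cKO array 1 or 3, and the 5 became 2 without DP cKO array 1 or CD8 SP cKO array 2, and 3 without CD8 SP cKO array 3.

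**Figure D1:**
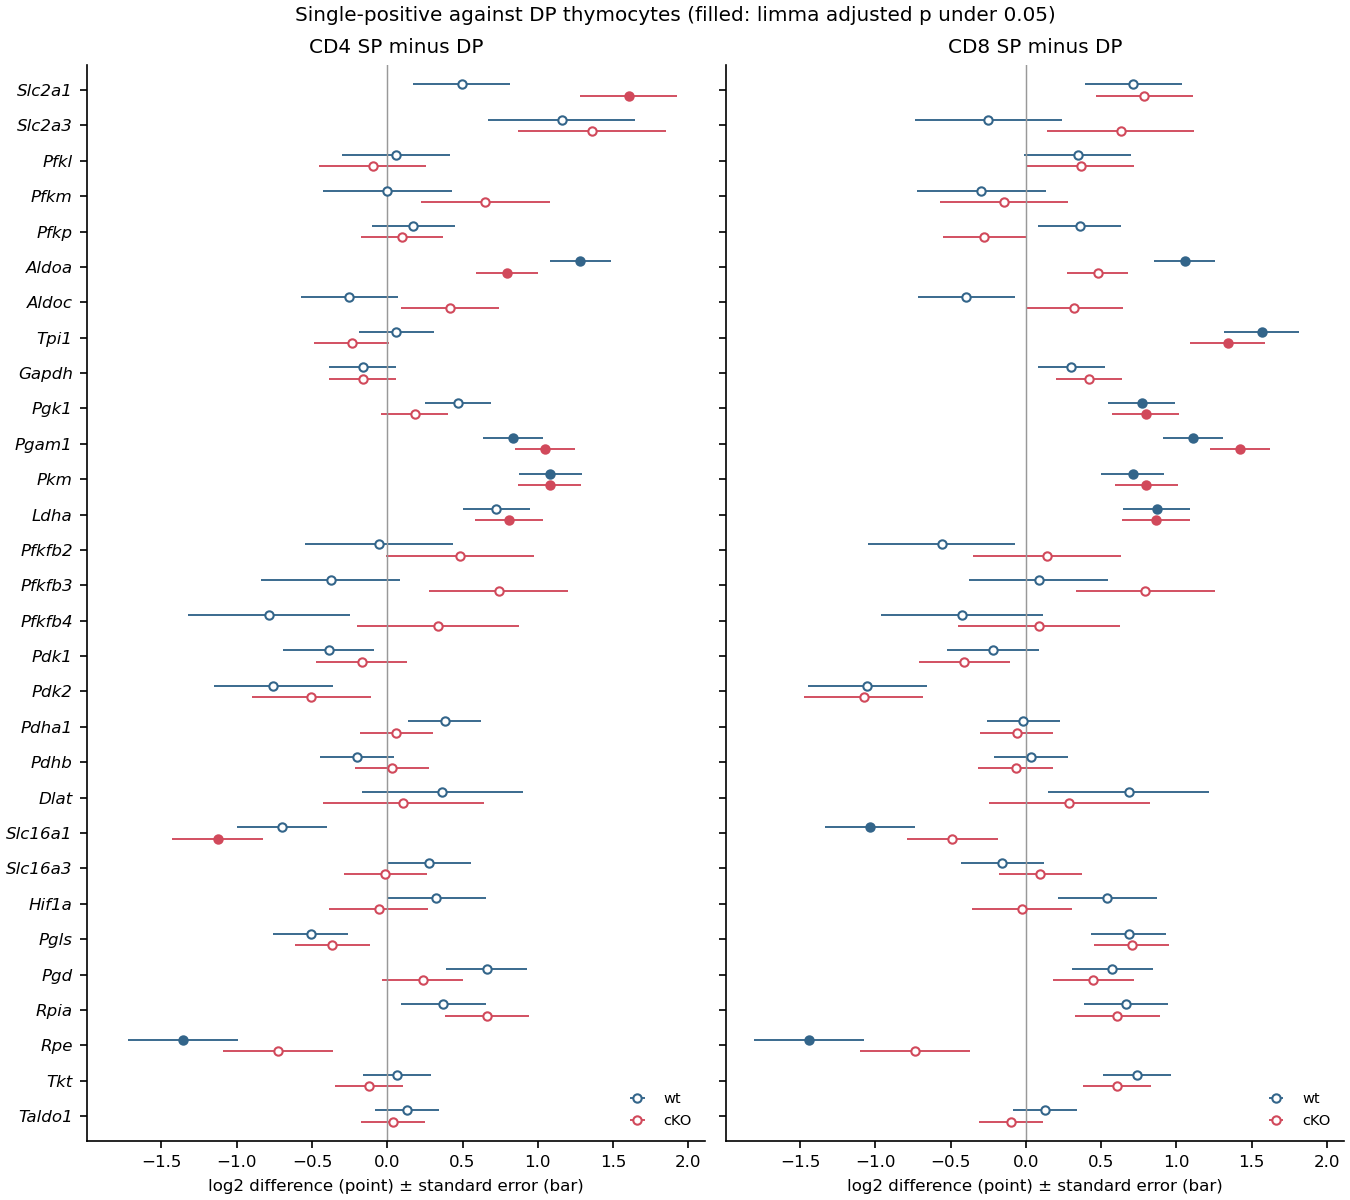
Differences of CD4 SP (left) and CD8 SP (right) from DP thymocytes for the 30 measured members, in log2 units, with wt in blue and cKO in red; points are differences, bars their standard errors, and filled points passed the adjusted threshold. The points of Aldoa, Pgam1, Pkm and Ldha lie right of 0 in both panels, while those of Tpi1 lie near 0 for CD4 SP and at 1.57 and 1.34 for CD8 SP.

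Glucose enters through GLUT1 and GLUT3, encoded by Slc2a1 and Slc2a3. Slc2a1 read 7.45, 6.95 and 6.53 on the DP wt arrays, 7.83, 7.40 and 7.19 in CD4 SP wt and 7.78, 7.68 and 7.62 in CD8 SP wt. In cKO it read 5.83, 5.57 and 6.86 in DP, 7.43, 7.84 and 7.80 in CD4 SP and 6.80, 6.67 and 7.14 in CD8 SP. DP cKO arrays 1 and 2 were the lowest of all 18, and the DP cKO values did not overlap those of CD4 SP cKO. Slc2a1 was 3.04-fold higher in CD4 SP than in DP cells of cKO (1.60 ± 0.32 SE, limma adjusted p = 0.00502), a call that ended when only these 2 groups were fitted (0.0569). In wt the same difference was 0.49 ± 0.32 (adjusted p = 0.487) and the groups overlapped. The 2 genotypes were not shown to differ, since the interaction of genotype and population gave an adjusted p of 1 for Slc2a1. For CD8 SP against DP the differences were 0.71 in wt and 0.79 in cKO, and neither passed (adjusted p = 0.197 and 0.189), though the cKO difference passed without DP cKO array 3 (1.17, adjusted p = 0.0309). With array brightness as a covariate both passed, at 1.22 in wt and 1.44 in cKO (adjusted p = 0.0252 and 0.0163). Slc2a3 averaged 6.37 ± 0.43 (SD, n = 3) in DP wt, 7.53 ± 0.38 in CD4 SP wt and 6.12 ± 1.35 in CD8 SP wt. CD8 SP wt array 3, at 4.56, did not detect it. Its CD4 SP against DP differences of 1.16 in wt and 1.36 in cKO had standard errors of 0.49 and did not pass (adjusted p = 0.216 and 0.155). Without CD8 SP wt array 3, which enters only the shared estimate of the spread here, both passed (adjusted p = 0.0432 and 0.0198).

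The 3 phosphofructokinase subunits, which catalyse the committed step, were Pfkl, Pfkm and Pfkp. None passed between populations by its brightest probe, and their SP minus DP differences ran from -0.30 to 0.65. Pfkl group means lay between 7.03 and 7.52, Pfkp between 7.25 and 7.69, and Pfkm between 6.57 and 7.70. CD8 SP wt array 3, at 5.20, did not detect Pfkm.

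Aldolase A cleaves fructose 1,6-bisphosphate into triose phosphates. Aldoa read 7.96, 7.97 and 7.97 in DP wt, 9.19, 9.26 and 9.31 in CD4 SP wt and 8.98, 8.95 and 9.14 in CD8 SP wt. All 6 SP arrays stood about a doubling above the 3 DP arrays, which were nearly identical. The difference was 1.28 ± 0.20 for CD4 SP (adjusted p = 0.000593) and 1.05 ± 0.20 for CD8 SP (adjusted p = 0.00383). In cKO the arrays read 8.59, 8.50 and 8.20 in DP, 9.14, 9.07 and 9.47 in CD4 SP and 8.78, 8.96 and 8.97 in CD8 SP. Here DP cells started higher, the groups still did not overlap, and the differences were 0.80 ± 0.20 (adjusted p = 0.0292) and 0.48 ± 0.20 (adjusted p = 0.217). The call for CD4 SP cKO ended without DP cKO array 2 or 3 or CD4 SP cKO array 1 or 3 (adjusted p = 0.0612, 0.143, 0.0623 and 0.127), whereas both wt calls passed under all 29 alternatives tried. Aldoc, the other aldolase measured, was detected on 3 arrays in all and averaged 4.50 to 5.15.

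Triose phosphate isomerase, encoded by Tpi1, interconverts the products of aldolase, and its profile differed from that of Aldoa. Tpi1 read 7.78, 8.19 and 8.21 in DP wt, 7.99, 8.25 and 8.13 in CD4 SP wt and 9.70, 9.53 and 9.65 in CD8 SP wt. The cKO arrays read 7.98, 8.31 and 8.28 in DP, 8.08, 8.36 and 7.42 in CD4 SP and 9.35, 9.67 and 9.57 in CD8 SP. Every CD8 SP array of either genotype lay about 1 unit or more above every DP and CD4 SP array, and DP and CD4 SP overlapped. The CD8 SP minus DP difference was 1.57 ± 0.25 in wt (adjusted p = 0.00081) and 1.34 ± 0.25 in cKO (adjusted p = 0.00278). The CD4 SP minus DP difference was 0.06 ± 0.25 in wt, with a 95% interval from -0.47 to 0.58. A second probe gave CD8 SP minus DP differences of 1.46 in wt (adjusted p = 0.00107) and 1.45 in cKO (adjusted p = 0.00122). A further Tpi1 probe was detected on 0 arrays.

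Glyceraldehyde 3-phosphate dehydrogenase (Gapdh), often used as a reference gene, did not pass in any comparison. Its group means ran from 8.09 ± 0.06 in CD4 SP cKO to 8.67 ± 0.22 in CD8 SP cKO. Phosphoglycerate kinase 1 (Pgk1) makes the first ATP of the payoff phase. Pgk1 read 8.54, 8.62 and 8.33 in DP wt, 8.94, 9.12 and 8.83 in CD4 SP wt and 9.25, 9.19 and 9.35 in CD8 SP wt. The cKO values were 8.15, 8.56 and 8.84 in DP, 8.79, 8.58 and 8.72 in CD4 SP and 9.24, 9.50 and 9.19 in CD8 SP. CD8 SP stood highest in both genotypes, and CD4 SP lay between in wt and overlapped DP in cKO. Pgk1 was higher in CD8 SP than DP by 0.77 ± 0.22 in wt (adjusted p = 0.0398) and 0.80 ± 0.22 in cKO (adjusted p = 0.0367). The wt call ended without any one of the 3 DP wt or 3 CD8 SP wt arrays (adjusted p from 0.0706 to 0.119). The cKO call ended without DP cKO array 1 or 2 or any CD8 SP cKO array (0.0615 to 0.196). A second Pgk1 probe, detected on 11 arrays, gave 0.16 in CD8 SP cKO (adjusted p = 0.923), and the mean of the probes ended the cKO call (0.48, adjusted p = 0.429).

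Phosphoglycerate mutase 1 (Pgam1) moves the phosphate of 3-phosphoglycerate. Pgam1 read 7.63, 7.74 and 7.74 in DP wt, 8.44, 8.73 and 8.45 in CD4 SP wt and 8.82, 8.81 and 8.82 in CD8 SP wt. In cKO it read 7.09, 7.49 and 7.49 in DP, 8.51, 8.36 and 8.34 in CD4 SP and 8.80, 8.80 and 8.73 in CD8 SP. DP lay lowest and CD8 SP highest in both genotypes with no overlap among the 3 populations. The CD8 SP minus DP difference was 1.11 ± 0.20 in wt (adjusted p = 0.00223) and 1.42 ± 0.20 in cKO (adjusted p = 0.000331). The CD4 SP minus DP difference was 0.83 ± 0.20 in wt (adjusted p = 0.0161) and 1.05 ± 0.20 in cKO (adjusted p = 0.00342). The wt CD4 SP call ended without DP wt array 1 (adjusted p = 0.0602) or CD4 SP wt array 2 (0.0827) and with median scaling (0.127). It also ended with only its 2 groups fitted (0.116) and without the 6 arrays of number 3 (0.116). A second probe was also higher in CD8 SP wt (1.05, adjusted p = 0.0374), while its CD4 SP difference of 0.66 did not pass (adjusted p = 0.261). In cKO it gave 0.45 for CD4 SP (adjusted p = 0.583) and 1.01 for CD8 SP (adjusted p = 0.0521). With the mean of both probes the CD4 SP calls were lost in wt (adjusted p = 0.0526) and in cKO (0.0606).

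Pyruvate kinase M (Pkm) makes pyruvate and the second ATP of this phase. Pkm read 9.02, 8.92 and 8.98 in DP wt, 9.96, 10.13 and 10.07 in CD4 SP wt and 9.72, 9.72 and 9.60 in CD8 SP wt. In the cKO groups Pkm read 8.82, 9.36 and 8.76 in DP, 10.01, 10.18 and 9.99 in CD4 SP and 9.67, 9.83 and 9.84 in CD8 SP. CD4 SP was the highest population for Pkm in both genotypes, unlike Tpi1, Pgk1 and Pgam1, but CD4 SP against CD8 SP did not pass (0.37 ± 0.21, adjusted p = 0.425 in wt). The CD4 SP minus DP difference was 1.08 ± 0.21 in wt (adjusted p = 0.00332) and 1.08 ± 0.21 in cKO (adjusted p = 0.00389). Leaving out single arrays ended neither call, but without the 6 arrays of number 3 both were lost (adjusted p = 0.0696 and 0.113), and the cKO call also with only its 2 groups fitted (0.0828). For CD8 SP it was 0.71 ± 0.21 in wt (adjusted p = 0.0448) and 0.80 ± 0.21 in cKO (adjusted p = 0.0261). The CD8 SP wt call was marginal: it ended without any array of DP wt, CD4 SP wt, CD4 SP cKO or CD8 SP wt or without CD8 SP cKO array 1 or 2 (adjusted p from 0.0503 to 0.124). The CD8 SP cKO call ended without DP cKO array 1 or 3 or CD8 SP cKO array 2 or 3 (adjusted p = 0.116, 0.113, 0.0858 and 0.0775). A second Pkm probe was higher in CD4 SP wt by 1.48 (adjusted p = 0.00921) and in CD8 SP wt by 1.10 (adjusted p = 0.0459). In cKO it gave 0.99 and 0.84 and did not pass (adjusted p = 0.111 and 0.162).

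Lactate dehydrogenase A (Ldha) read 9.42, 9.62 and 9.43 in DP wt, 10.30, 10.32 and 10.01 in CD4 SP wt and 10.30, 10.47 and 10.29 in CD8 SP wt. In cKO it read 9.11, 9.75 and 9.54 in DP, 10.13, 10.46 and 10.25 in CD4 SP and 10.26, 10.54 and 10.21 in CD8 SP. All 12 SP arrays stood above all 6 DP arrays. Ldha was higher in CD8 SP than DP by 0.87 ± 0.22 in wt (adjusted p = 0.0220) and 0.86 ± 0.22 in cKO (adjusted p = 0.0241). For CD4 SP the difference was 0.72 ± 0.22 in wt, which missed the threshold (adjusted p = 0.0692) and passed with the chip as a block (0.0448) and under 6 other settings, and 0.81 ± 0.22 in cKO (adjusted p = 0.0457). Leaving out DP wt array 1 or 3 or any CD8 SP wt array ended the CD8 SP wt call (adjusted p from 0.0506 to 0.0837). Leaving out DP cKO array 1 or 3 or CD8 SP cKO array 2 ended the CD8 SP cKO call (adjusted p = 0.139, 0.0534 and 0.107). The CD4 SP cKO call passed without DP cKO array 2 and ended without any other array (adjusted p from 0.0502 to 0.229).

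Lactate leaves and enters cells through the monocarboxylate transporters MCT1 (Slc16a1) and MCT4 (Slc16a3). Slc16a1 read 6.59, 6.08 and 6.22 in DP wt, 6.05, 5.70 and 5.05 in CD4 SP wt and 5.22, 5.74 and 4.84 in CD8 SP wt. The cKO values were 6.48, 6.19 and 5.90 in DP, 5.10, 5.22 and 4.86 in CD4 SP and 5.76, 5.37 and 5.97 in CD8 SP. It was detected on all 6 DP arrays, on 2 of 3 arrays of CD4 SP wt, CD8 SP wt and CD8 SP cKO each and on 1 of 3 of CD4 SP cKO, so its folds rest in part on values not above background. By group, the DP mean was the highest in each genotype. Slc16a1 was lower in CD8 SP than DP of wt by 2.05-fold (-1.03 ± 0.30, adjusted p = 0.0418), and lower in CD4 SP than DP of cKO by 2.18-fold (-1.13 ± 0.30, adjusted p = 0.0381). The other pairs of populations gave -0.70 in CD4 SP wt (adjusted p = 0.227) and -0.49 in CD8 SP cKO (adjusted p = 0.454). The wt call ended without any DP wt array, DP cKO array 2, CD4 SP wt array 2, CD4 SP cKO array 1, CD8 SP wt array 1 or 3 or CD8 SP cKO array 1 (adjusted p from 0.0507 to 0.174). The cKO call ended without DP cKO array 1 or 2 or any CD4 SP cKO array (0.0677 to 0.171). Both calls were also lost in the authors' own normalized values (adjusted p = 0.209 and 0.137). Slc16a3 group means ran from 5.77 to 6.21, and it passed in no comparison.

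**Figure D2:**
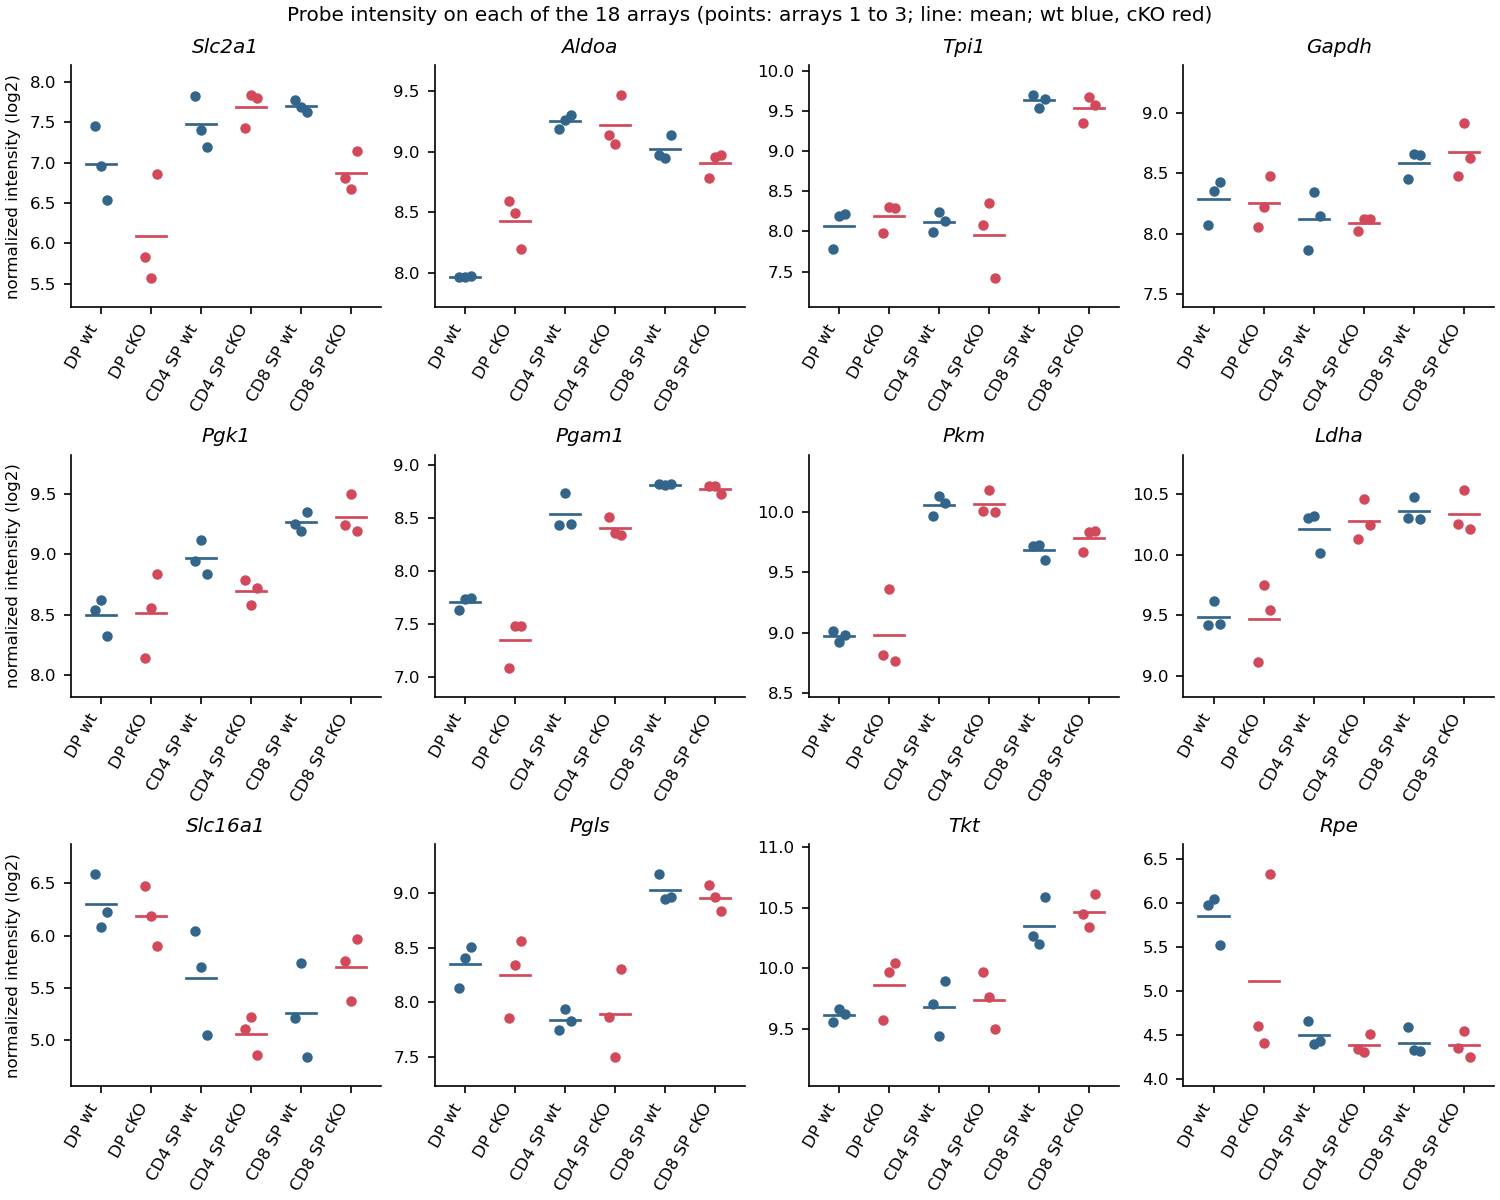
Normalized log2 intensity of 12 members on each of the 18 arrays, by population and genotype, with wt in blue and cKO in red; points are arrays and lines group means, and each panel has its own axis. Aldoa, Pgam1, Pkm and Ldha are higher in both SP populations than in DP, and Tpi1 and Pgls are high in CD8 SP, while Slc16a1 and Rpe are highest in DP wt.

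The members that control flux and entry into mitochondria did not pass between populations by the probes that stand for them. Pfkfb2, Pfkfb3 and Pfkfb4 make and break fructose 2,6-bisphosphate, an activator of phosphofructokinase. Pfkfb3 group means ran from 6.01 to 6.80, whereas Pfkfb2 was detected on 7 arrays and Pfkfb4 on 3. Hif1a encodes the oxygen-regulated transcription factor that drives many glycolytic genes, and its brightest probe averaged 6.68 to 7.27. Pyruvate dehydrogenase joins glycolysis to the citric acid cycle, and the kinases Pdk1 and Pdk2 switch it off. Its subunits had flat profiles, with group means from 8.35 to 8.75 for Pdha1 and from 7.50 to 7.73 for Pdhb. Dlat was detected on 13 arrays with means from 5.04 to 5.72. Pdk2 read 6.97, 7.11 and 7.95 in DP wt and 6.34, 5.87 and 6.65 in CD8 SP wt, and 7.50, 7.24 and 7.21 in DP cKO and 6.80, 5.40 and 6.52 in CD8 SP cKO. The groups did not overlap in either genotype, but the differences of -1.05 ± 0.39 and -1.08 ± 0.39 missed the threshold (adjusted p = 0.113 and 0.127).

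Of the pentose phosphate genes, the oxidative enzymes measured were Pgls and Pgd, and the enzymes that rearrange sugars were Rpia, Rpe, Tkt and Taldo1. Taldo1 was nearly level, with group means from 10.07 to 10.28. Transketolase (Tkt) read 9.55, 9.66 and 9.62 in DP wt and 10.27, 10.20 and 10.58 in CD8 SP wt. Its groups did not overlap, and the difference of 0.74 ± 0.23 missed the threshold (adjusted p = 0.0537). It passed under 7 of the 11 alternatives other than leaving out single arrays (adjusted p from 0.000394 to 0.0442), the authors' own values and median scaling among them. The difference was 0.60 ± 0.23 in cKO (adjusted p = 0.142). Pgd averaged 9.21 in DP wt, 9.87 in CD4 SP wt and 9.78 in CD8 SP wt (adjusted p = 0.194 and 0.215). Rpia averaged 8.55, 8.92 and 9.22 in these 3 groups (adjusted p = 0.567 and 0.165). Rpe, which interconverts ribulose and xylulose 5-phosphate, read 5.97, 6.05 and 5.53 in DP wt and 4.31 to 4.66 on the 6 SP wt arrays. No SP array of either genotype detected it, so Rpe was at least 1.94-fold lower in CD4 SP wt (adjusted p = 0.0339) and at least 1.92-fold lower in CD8 SP wt (adjusted p = 0.0204). For these folds an SP value below the dimmest detected probe on the array was replaced by the value of that probe. The DP cKO arrays read 4.60, 4.41 and 6.34, and 1 of the 3 detected it. A second Rpe probe was detected on 0 arrays, those of DP wt included. The CD4 SP call ended without DP wt array 1 or 2 or any CD4 SP wt array (adjusted p from 0.0643 to 0.118). It also ended with offset 50 (adjusted p = 0.0523), no filter (0.0542) and the authors' own values (0.0965). The CD8 SP call ended without DP wt array 1 or 2 or CD8 SP wt array 2 or 3 (0.067 to 0.0775). With array brightness as a covariate it ended as well (adjusted p = 0.167). As Rpe was kept only through its DP arrays, both calls follow in part from the filter.

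The second question was how the SP lineages differed from each other. Tpi1 and Pgls, an enzyme of the oxidative pentose phosphate branch, were lower in CD4 SP than in CD8 SP cells of both genotypes. By the probes that stand for the genes, they were the only members past the threshold, 2 of 30 in wt and 2 of 30 in cKO. Over all genes the shares were 3.6% in wt and 4.18% in cKO (lower alone 2.11% and 2.62%, higher alone 1.49% and 1.56%). The difference of Tpi1 was -1.51 ± 0.25 in wt (adjusted p = 0.00195) and -1.58 ± 0.25 in cKO (adjusted p = 0.00111), a gap of 2.84-fold and 2.99-fold. The wt call passed under all 29 alternatives, and the cKO call ended when only its 2 groups were fitted (adjusted p = 0.0676) or when the 6 arrays of number 3 were left out (0.0662). The second Tpi1 probe gave -1.10 (adjusted p = 0.0157) and -1.34 (adjusted p = 0.00328). Pgls read 7.74, 7.94 and 7.83 in CD4 SP wt and 9.18, 8.94 and 8.96 in CD8 SP wt, and 7.87, 7.50 and 8.30 against 9.07, 8.96 and 8.84 in cKO. DP arrays, from 7.85 to 8.56, lay below every CD8 SP array and overlapped CD4 SP. The Pgls difference was -1.19 ± 0.25 in wt (adjusted p = 0.0113) and -1.07 ± 0.25 in cKO (adjusted p = 0.0204). It ended in wt without CD4 SP wt array 1 (0.0526) or CD8 SP wt array 1 (0.0583), and in cKO without CD4 SP cKO array 1 or 2 or CD8 SP cKO array 1 or 2 (0.0674, 0.0948, 0.064 and 0.0661), so that Tpi1 alone remained in these cases. The 3 other Pgls probes did not show it, with wt differences of 0.00, -0.11 and 0.29.

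Tkt was lower in CD4 SP than CD8 SP without overlap in both genotypes (-0.67 ± 0.23 and -0.72 ± 0.23) and missed the threshold (adjusted p = 0.131 and 0.0923), though it passed under 4 of the 11 alternatives other than leaving out single arrays in each genotype. Gapdh gave -0.47 and -0.58 and Pgk1 -0.30 and -0.61, and none of these passed. Slc2a3 pointed the other way, at 1.41 ± 0.49 in wt (adjusted p = 0.144) and 0.73 ± 0.49 in cKO (adjusted p = 0.571). In wt 3 members had all 3 CD4 SP values above the CD8 SP values and 7 had them below, where the shares over all genes were 10.4% and 12.7%. In cKO the counts were 5 and 7, beside 8.98% and 10.8%. The members' median was -0.18 in wt and 0.03 in cKO, against -0.06 and -0.00 over all genes. The cycling-cell markers given above also stood higher in CD8 SP than CD4 SP, by group mean 8.02 against 6.48 in wt. Of the 11 measured markers, 9 were detected on all 3 CD8 SP wt arrays and 8 on all 3 CD4 SP wt arrays. Their part in the Tpi1 and Pgls values was not tested. Between DP wt and CD8 SP wt single markers went both ways: Mcm5 averaged 9.48 and 10.25 and Mki67 10.16 and 9.75.

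**Figure D3:**
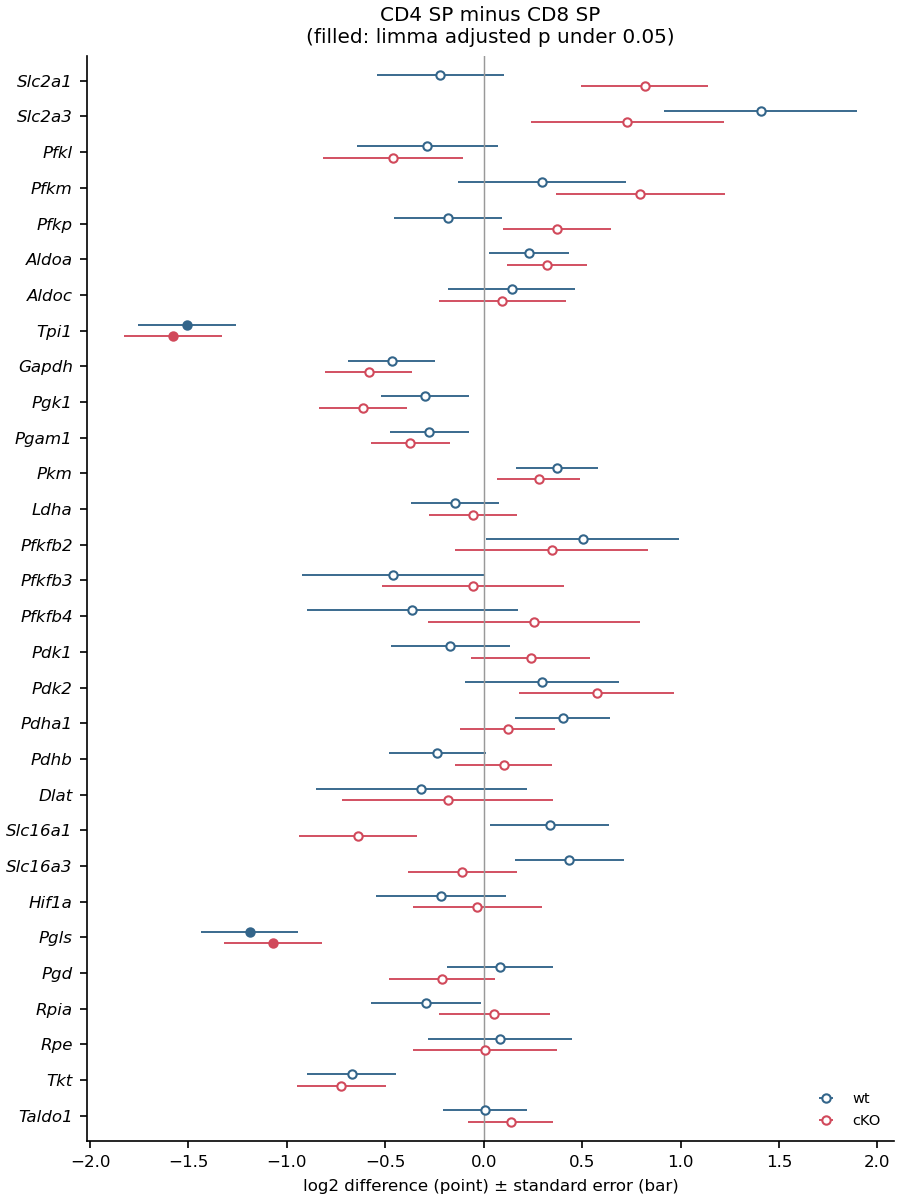
Differences of CD4 SP from CD8 SP thymocytes for the 30 measured members, in log2 units, with wt in blue and cKO in red; points are differences, bars standard errors, and filled points passed the adjusted threshold. Tpi1 and Pgls are filled on the left in both genotypes, and Slc2a3 lies farthest right in wt at 1.41.

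The wt and cKO comparisons of populations set different arrays against each other, but all 18 arrays shared 1 estimate of the spread, so their calls are not independent. Of the members called in wt, 3 of 4 for CD4 SP against DP, 5 of 8 for CD8 SP against DP and 2 of 2 for CD4 SP against CD8 SP were called in the same direction in cKO. Over all genes called in wt the shares were 62.41%, 56.39% and 65.31%. All 4, 8 and 2 had the same sign in cKO, beside 98.18%, 94.22% and 97.00% of all called genes. Aldoa, Pgam1 and Pkm were called in both genotypes for CD4 SP, and Tpi1, Pgk1, Pgam1, Pkm and Ldha for CD8 SP. With only the 2 groups compared in each fit, which leaves no shared arrays, most of this was lost. For CD4 SP against DP wt then called 3 members, Aldoa, Pkm and Rpe, and lost Pgam1 (adjusted p = 0.116). The cKO fit called 0, with adjusted p of 0.196 for Aldoa, 0.0729 for Pgam1 and 0.0828 for Pkm. For CD8 SP against DP wt called 4 and cKO 2, and Tpi1 and Pgam1 were in both. Pgk1, Pkm and Ldha missed in wt (adjusted p = 0.104, 0.117 and 0.0729) and in cKO (0.191, 0.178 and 0.153). For CD4 SP against CD8 SP wt called 2 and cKO 0.

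Where several probes were tested for a gene, which was so for 12 of the 30, the brightest stood for it, and for some genes the probes disagreed. The second Pdk1 probe, which the array lists under a clone name, was lower in CD4 SP than DP of wt (-1.63, adjusted p = 0.00339) and of cKO (-1.48, adjusted p = 0.00811), where the brightest probe gave -0.39 and -0.17 without a call. It averaged 7.60 in DP wt and was detected on no CD8 SP array. Its CD8 SP minus DP difference was -3.15 in wt (adjusted p = 1.19e-05) and -1.92 in cKO (adjusted p = 0.00114). For CD4 SP minus CD8 SP it gave 1.53 in wt (adjusted p = 0.0107) and 0.44 in cKO (adjusted p = 0.613). These sizes rest in part on values not above background. A second Hif1a probe was lower in CD8 SP wt (-1.59, adjusted p = 0.0250), where the brightest gave 0.54 (adjusted p = 0.357). A further Hif1a probe gave -1.05 there and did not pass (adjusted p = 0.185). A second Pdhb probe was also lower there (-1.76, adjusted p = 0.00672), where the brightest gave 0.04. A second Pfkm probe, detected on 3 arrays and on 0 of CD8 SP wt, was lower there too (-1.18, adjusted p = 0.0482), where the brightest gave -0.30. A statement about Pdk1, Hif1a, Pdhb, Pfkm or Pgls depends on which probe is read, and so do some calls of Pgk1 and Pgam1. The tested Tpi1 probes were called alike in each population comparison, and those of Pkm had the same sign in each.

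**Figure D4:**
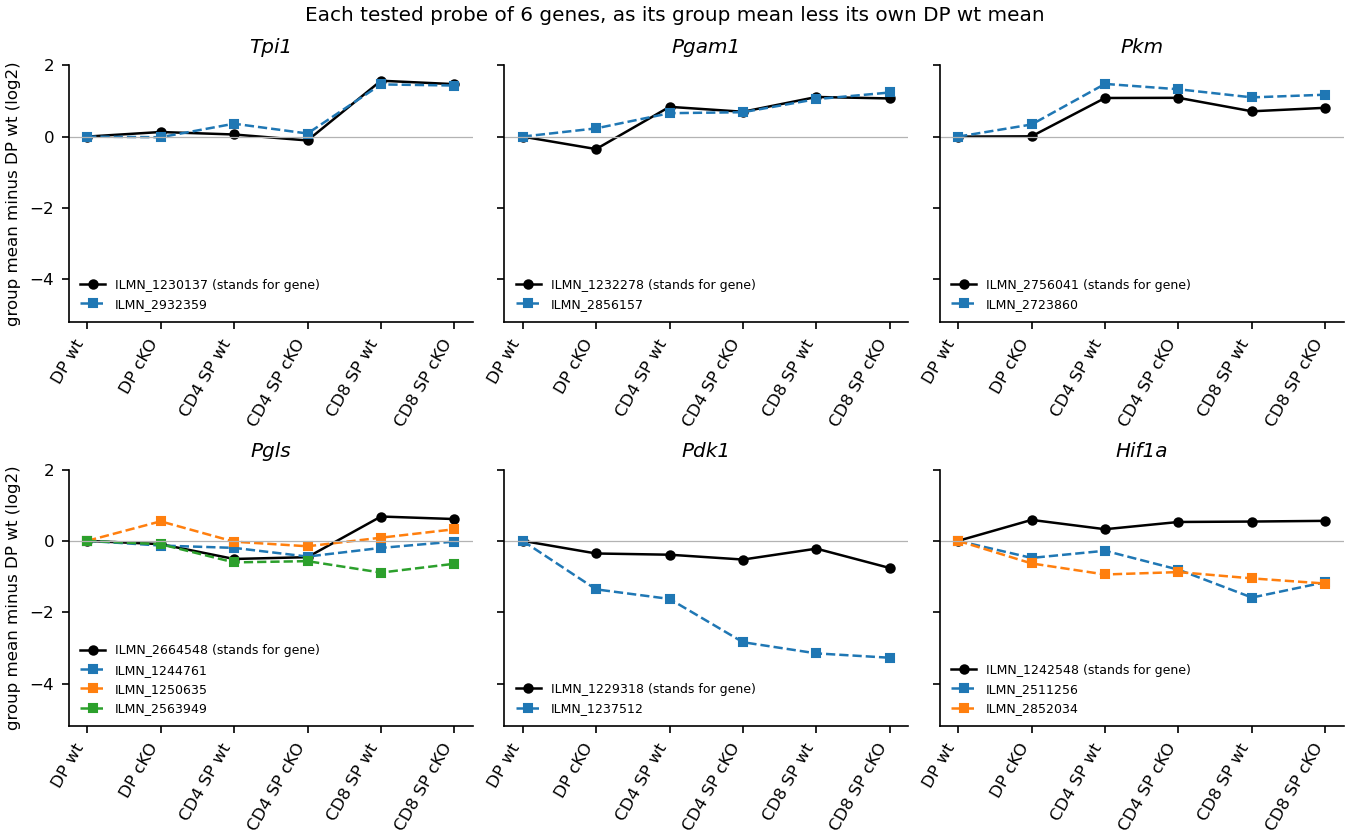
Group means of every tested probe of 6 members, each shown as its log2 difference from its own DP wt mean; black circles mark the probe that stands for the gene and coloured squares the other probes. The lines of Tpi1, Pgam1 and Pkm run together, and those of Pgls, Pdk1 and Hif1a part.

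Promoter sequence was set beside the members that differed. The windows are RefSeq promoters of GRCm38.p6, 250 bases before to 50 after an annotated start, and 29 of the 30 measured members matched. They were searched on both strands for ACGTG, a core to which hypoxia-inducible factors bind, and for CACGTG, the E-box read by MYC and related proteins, which holds ACGTG on both strands. ACGTG occurred in any window of 16 of 29 members (55.2%), against 21.8% of 27025 genes counted in the same way. The number of windows per gene was not matched. Counted by single window, which is another measure, 19.6% of 32851 windows of this length held ACGTG. By gene, ACGTG occurred for 6 of the 7 members called higher in SP than DP in either genotype, Tpi1 being the exception. The same held for 9 of the 19 members with no population call. CACGTG occurred for 7 of 29 members (24.1%), against 8.09% of genes, and for 1 of the 7, Ldha. Of single windows 7.15% held CACGTG. Such letters describe the window and are not evidence of binding. The 4 windows below are those of Tpi1, called higher in CD8 SP only, of Pgam1 and Aldoa, called higher in both SP populations of wt, and of Ldha, which held most matches. They lie at chr6:124814109-124814408 (minus strand), chr19:41911621-41911920 (plus), chr7:126799129-126799428 (minus) and chr7:46845554-46845853 (plus), and capitals mark ACGTG or its reverse complement CACGT.
Tpi1: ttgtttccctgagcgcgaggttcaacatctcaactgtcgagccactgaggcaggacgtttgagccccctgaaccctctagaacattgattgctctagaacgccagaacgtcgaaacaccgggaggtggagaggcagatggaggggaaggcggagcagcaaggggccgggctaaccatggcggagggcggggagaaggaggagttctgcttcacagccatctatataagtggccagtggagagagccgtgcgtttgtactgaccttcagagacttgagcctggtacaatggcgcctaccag
Pgam1: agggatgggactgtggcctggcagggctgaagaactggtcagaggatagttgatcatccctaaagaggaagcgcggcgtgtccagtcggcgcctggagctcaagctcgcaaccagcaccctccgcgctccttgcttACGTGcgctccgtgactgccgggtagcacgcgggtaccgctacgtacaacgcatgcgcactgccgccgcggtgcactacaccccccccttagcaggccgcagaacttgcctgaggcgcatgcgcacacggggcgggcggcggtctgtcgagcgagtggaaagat
Aldoa: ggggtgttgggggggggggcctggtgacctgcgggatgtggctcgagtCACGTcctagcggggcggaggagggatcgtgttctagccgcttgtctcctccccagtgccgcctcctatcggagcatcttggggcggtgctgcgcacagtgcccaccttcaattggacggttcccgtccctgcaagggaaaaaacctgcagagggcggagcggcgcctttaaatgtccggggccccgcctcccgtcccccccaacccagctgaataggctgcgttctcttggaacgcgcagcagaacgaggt
Ldha: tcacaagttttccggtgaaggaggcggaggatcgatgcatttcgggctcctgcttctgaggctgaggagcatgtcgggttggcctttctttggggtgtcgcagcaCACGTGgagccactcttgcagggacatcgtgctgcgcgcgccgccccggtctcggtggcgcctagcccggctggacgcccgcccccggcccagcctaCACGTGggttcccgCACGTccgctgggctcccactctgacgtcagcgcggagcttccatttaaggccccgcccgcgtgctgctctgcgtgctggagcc
Tpi1 has 0 matches, Pgam1 and Aldoa have 1 each, and Ldha has 5 counted over both strands, from 2 E-boxes and 1 further core. Where a gene had several windows, the one with most ACGTG matches is shown. Another Aldoa window and another Ldha window had 0.

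A second list of 54 further genes of sugar metabolism and its control gave 38 measured genes, which were not rerun under the alternatives. Between CD4 SP and DP of wt 1 passed, and between CD8 SP and DP of wt 2 passed, all higher, which is 2.63% and 5.26% of the 38 against 6.33% and 7.6% of all genes. In cKO 1 passed for CD4 SP, and for CD8 SP 1 higher and 2 lower, 2.63% and 7.89% of the 38 against 5.25% and 6.82%. Pgm2, a phosphoglucomutase by its listed symbol, was higher in CD4 SP (1.98 ± 0.51, adjusted p = 0.0267) and in CD8 SP (2.43 ± 0.51, adjusted p = 0.00694). Its DP wt mean was 5.12 and its DP cKO mean 5.96. Prps1, which turns ribose 5-phosphate into the activated sugar for nucleotides, was higher in CD8 SP of wt (0.93 ± 0.27, adjusted p = 0.0449) and of cKO (1.07 ± 0.27, adjusted p = 0.0236). In cKO, Slc2a9, a transporter of urate and hexoses, was higher in CD4 SP than DP (2.05 ± 0.40, adjusted p = 0.00431). Txnip, which restrains glucose uptake, and Arnt, the partner of HIF-1 alpha, were lower in CD8 SP than DP of cKO (-0.96 ± 0.24, adjusted p = 0.0185, and -1.29 ± 0.35, adjusted p = 0.0340). No gene of this second list passed between CD4 SP and CD8 SP. The median over the 38 was 0.19 for CD4 SP and 0.14 for CD8 SP against DP in wt, beside 0.07 and 0.15 over all genes.

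The last question was whether thymocytes from cKO mice differed from wt in this pathway. No member passed the threshold within any of the 3 populations, over their mean, or in the interaction of genotype and population, and neither did any of the 12978 genes (0%). At an unadjusted p under 0.05 in limma, DP cells gave 2 members of 988 genes, CD4 SP cells 0 of 929, CD8 SP cells 1 of 555, their mean 1 of 1338 and the interaction 1 of 539. The members' median difference was -0.02 in DP cells, 0.03 in CD4 SP cells and -0.00 in CD8 SP cells, beside 0.05, 0.03 and -0.00 over all genes. The precision limits what can be said of single genes. With a median standard error of 0.28, the 95% interval lay within a doubling either way for 21 of 30 members among DP, 21 among CD4 SP and 19 among CD8 SP cells, and for 29 over the mean of the populations, where the median error was 0.16.

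By the probes that stand for the genes, Slc2a1 had the smallest p in CD8 SP and in DP cells, over the mean and in the interaction. Its values are given above: in CD8 SP the 3 cKO arrays lay below the 3 wt arrays, and in DP cKO arrays 1 and 2 lay below wt while array 3 overlapped. Slc2a1 differed by -0.89 ± 0.32 in DP (adjusted p = 0.464), 0.22 ± 0.32 in CD4 SP (adjusted p = 0.932), -0.82 ± 0.32 in CD8 SP (adjusted p = 1) and -0.50 ± 0.19 over the mean (adjusted p = 0.327). By chip the DP difference was -1.63, -1.38 and 0.33. The second Pdk1 probe gave a smaller adjusted p than Slc2a1 in DP (-1.36, limma adjusted p = 0.240) and over the mean (-0.90, 0.126). In CD4 SP this probe gave -1.21 (0.367), with 1 cKO array detecting it, and in CD8 SP -0.12. None of these passed. By the probes that stand for the genes, the next members in DP were Aldoa (0.46 ± 0.20, adjusted p = 0.560), with all 3 cKO values above wt, Rpe (-0.74 ± 0.37, adjusted p = 0.602) and Hif1a (0.59 ± 0.33, adjusted p = 0.652). The other tested Hif1a probes had the opposite sign in DP, at -0.48 and -0.63 (limma adjusted p = 0.810 and 0.752). The cKO values separated from wt for 1 member above and 2 below in DP (8.38% and 5.05% of all genes), for 2 above and 1 below in CD4 SP (6.23% and 5.41%) and for 1 above and 3 below in CD8 SP (4.41% and 4.25%).

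By the probes that stand for the genes, the smallest p in CD4 SP cells belonged to Pfkm. It read 7.82, 7.89 and 7.41 in cKO against 6.89, 6.58 and 7.13 in wt (0.84 ± 0.43, adjusted p = 0.674). The cKO values lay above wt without passing. A second Pfkm probe, detected on 3 arrays, had the opposite sign in CD4 SP (-0.59, adjusted p = 0.739) and gave -1.13 in DP (0.388). Slc16a1 (-0.54 ± 0.30), Aldoc (0.50 ± 0.32) and Pgk1 (-0.27 ± 0.22) followed, with adjusted p of 0.714 or more. In CD8 SP cells Pdk1 (-0.54 ± 0.30), Aldoc (0.55 ± 0.32) and Pfkp (-0.44 ± 0.27) came after Slc2a1, each with an adjusted p of 1. Over the mean of the populations Pdk1 gave -0.34 ± 0.17 (adjusted p = 0.450), Pfkm 0.45 ± 0.25 (adjusted p = 0.484) and Aldoc 0.30 ± 0.19 (adjusted p = 0.551). Of the 3 members whose population calls passed every alternative in at least 1 comparison, Tpi1 differed between genotypes by 0.13 ± 0.25 in DP and -0.10 ± 0.25 in CD8 SP, Pgam1 by -0.35 ± 0.20 and -0.04 ± 0.20, and Aldoa by 0.46 ± 0.20 and -0.12 ± 0.20.

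**Figure D5:**
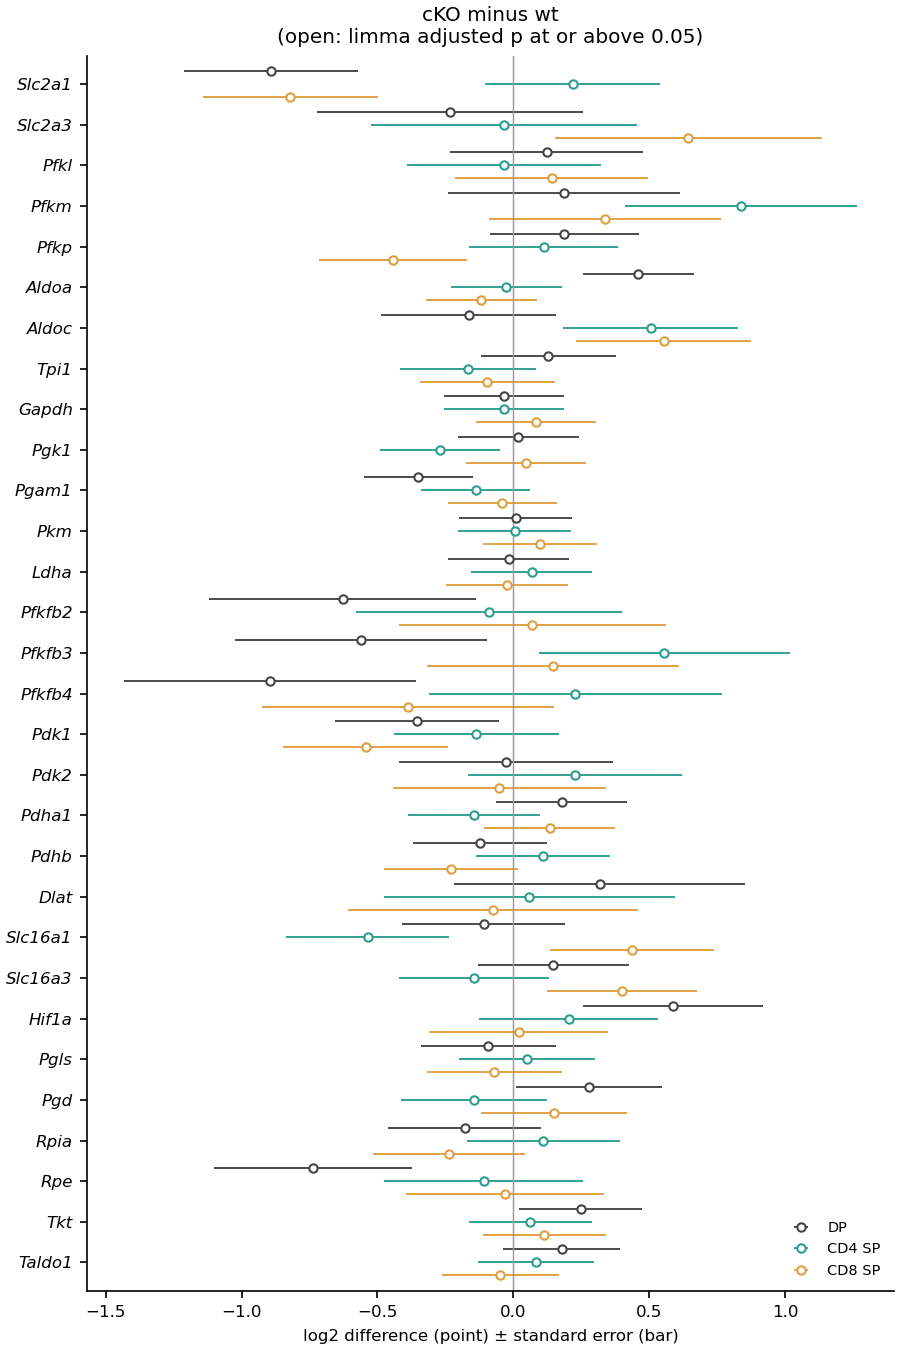
Differences of cKO from wt for the 30 measured members in DP (grey), CD4 SP (green) and CD8 SP (orange) thymocytes, in log2 units; points are differences and bars standard errors, and all points are open because none passed the adjusted threshold. Slc2a1 lies at -0.89 and -0.82 in DP and CD8 SP cells and at 0.22 in CD4 SP cells.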

How the data were processed

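RNA from 18 sorted thymocyte samples was hybridised to Illumina mouse BeadChips, 1 colour and 3 arrays in each of 6 groups. The deposited probe table holds, per the file headers, an intensity and a detection p-value for each probe and array. The authors' processed values form a second deposited table, a linear intensity scale (its normalization: not given in the sources used here), and they served as an alternative. The deposited intensities were turned into log2 values by neqc of limma 3.58.1 (R 4.3.3), which corrects background through the detection p, applies quantile normalization and adds an offset of 16. Probes with detection p under 0.05 on at least 3 arrays were tested, 26676 of 46237, and 35784 probes had a symbol. A linear model with a mean per group over all 18 arrays (12 residual degrees of freedom), eBayes and Benjamini-Hochberg adjustment over the tested probes gave every test. The brightest tested probe stood for a gene, and scripts were tested on simulated data. Array number limits the precision. Label numbers 1 to 3 mark 3 BeadChips, each with all 6 groups. By the letters in the array names, each group had the same position on all 3 chips, so position and group cannot be told apart. Residuals of arrays with the same number correlated at -0.149 to 0.314 over 45 pairs. The gene members and lists were chosen with earlier results of these data known. Alternatives covered scaling, offset, filter, variance model, samples fitted, probe summary, the chip as a block and each array left out. A bound written as at least N-fold compares the bright group's mean with, per array, the higher of the dim probe's value and the lowest detected signal. Figures were drawn with matplotlib 3.10.9.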

Additional observations from a re-analysis of the deposited data

How the results depend on the processing

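Of 1352 recomputed values of 47 member results, 1198 kept direction and side of the threshold, 152 lost the threshold, and 2 of uncalled genes turned sign with the mean of a gene's probes: Hif1a cKO minus wt in DP to -0.17 and Pfkm over the mean of the populations to -0.061. In all 7 calls passed under all 29 alternatives: Aldoa in both wt SP against DP comparisons, Pgam1 in CD8 SP against DP of wt and cKO, and Tpi1 in CD8 SP against DP of wt and cKO and in CD4 SP against CD8 SP of wt. Leaving out each array gave 2 to 5 members called for CD4 SP against DP, 3 to 8 for CD8 SP against DP and 1 to 2 for CD4 SP against CD8 SP in wt, and 3 to 6, 2 to 5 and 1 to 2 in cKO; genotype and interaction counts were 0 throughout. Without the 6 arrays of number 3, an alternative chosen after seeing the data, the counts were 2, 4 and 1 in wt and 1, 2 and 0 in cKO. With array brightness as a covariate, also added later, CD8 SP against DP gave 4 in wt and 3 in cKO. In wt the 4 were Aldoa, Tpi1, Pgam1 and Slc2a1, the last a gain (adjusted p = 0.0252). Pgk1, Pkm, Ldha, Slc16a1 and Rpe were lost there (adjusted p from 0.0593 to 0.221). In cKO Pgk1, Pkm and Ldha were lost (0.0633 to 0.219) and Slc2a1 was gained (0.0163). CD4 SP against DP of cKO gave 3 with this covariate. Fitting only the groups compared gave 4 for CD8 SP against DP of wt and 0, 2 and 0 in cKO. CD4 SP against CD8 SP gave 4 in wt and 4 in cKO with trend and robust variance, 1 and 1 with the mean of probes, and in cKO 5 in the authors' values and 4 without a filter. Median scaling gave 3 for CD4 SP against DP of cKO, 3 higher and 0 lower where quantile normalization gave 5 and 1, and moved the median of all genes for CD8 SP against DP of wt from 0.15 to 0.30. The replicate block by chip gave 5, 8 and 2 in wt and 6, 5 and 2 in cKO, with 0 of 47 member results changed but Ldha gained for CD4 SP against DP of wt (adjusted p = 0.0448). Settings also gained calls among members outside the 47 results, most often for Ldha in that comparison and for Tkt in CD8 SP against DP of wt, 7 of 11 settings each. Signal over background limits Rpe, Aldoc, Pfkfb2, Pfkfb4, Dlat and Slc16a1, which some arrays did not detect.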
